A study of Macaca mulatta with 15 samples.

Results

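The genes described are CD4, CD8A and CD8B, which encode the co-receptors that name the helper and cytotoxic T cell lineages, and ZBTB7B, RUNX3, RUNX1 and TOX, transcription regulators of the choice between those lineages. They were taken by name, from a list set with earlier results of these data known. Of the 7, 6 were found by the symbol in the row name among 34884 rows. CD8B, whose row carries no symbol, was found by its gene ID ENSMMUG00000003532. The other gene IDs are ENSMMUG00000013202 for CD4, ENSMMUG00000003524 for CD8A, ENSMMUG00000004053 for ZBTB7B, ENSMMUG00000002420 for RUNX3, ENSMMUG00000001649 for RUNX1 and ENSMMUG00000010971 for TOX. All 7 passed the filter on low counts, which kept 14814 genes.

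The series measured RNA in blood T cells of 2 healthy rhesus macaques, RhM22 and RhDBCb, after and before treatment with 2-hydroxypropyl-beta-cyclodextrin (Kleptose HBP), a sugar ring that binds cholesterol. Each animal received a 15% (w/w) solution under the skin, at a daily 1 ml per kg body weight and over a period that could reach 120 days; the before libraries are labelled as untreated. Each of the 15 libraries holds 1 of 4 subsets, CD8 memory, CD8 naive, CD4 memory or CD4 naive, with 1 library per animal, subset and time; for CD8 naive cells after treatment RhM22 alone was analysed here. The libraries come from 4 blood draws, no animal without treatment over the same period was analysed here, and neither the ages nor the way the subsets were separated is given in the labels. Time and treatment therefore cannot be told apart, and every p-value measures only the spread among libraries of 2 animals.

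CD4 and CD8 are surface proteins that bind the constant parts of MHC molecules, CD4 those of class II and CD8 those of class I, and both bring the kinase LCK to the T cell receptor. In the mouse thymus, cells that carry both co-receptors keep 1 of them: the zinc finger factor ZBTB7B, also called ThPOK, directs the helper fate, while RUNX3 silences CD4 and directs the cytotoxic fate, and each represses the gene of the other. In blood the choice is already made, and the same regulators are known to be reused in mature T cells during activation and memory formation.

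Total counts ranged from 44414963 to 71787211 per library, and 13525 to 15445 genes were detected. The before libraries of RhDBCb stand apart in this respect, each with the fewest genes detected of its subset (13525 to 14750). Levels are given as CPM, read counts relative to library totals scaled with TMM factors; 3 counts corresponded to 0.0386 to 0.0699 CPM. The summed level of 5 general T cell markers was 654 to 1330 CPM over the libraries. Of the 5 memory markers the summed level was 5970 to 9450 CPM in CD8 memory libraries against 1740 to 3480 CPM in CD8 naive libraries, and 6740 to 7410 CPM in CD4 memory libraries against 2400 to 4280 CPM in CD4 naive libraries. The 5 naive markers overlapped in the CD4 lineage, with 7240 to 10900 CPM in CD4 memory and 8130 to 20400 CPM in CD4 naive libraries. In the CD8 lineage they did not overlap, with 3800 to 6850 CPM in CD8 memory and 8780 to 13300 CPM in CD8 naive libraries; 1 of the 5, NELL2, was at 0 in every CD8 memory, CD8 naive and CD4 naive library.

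The co-receptor genes followed the subset labels in all 15 libraries. CD4, the class II co-receptor, had 0.934, 1.1, 0.207 and 1.46 CPM in the CD8 memory libraries, in the order RhM22 after, RhM22 before, RhDBCb after and RhDBCb before, an order kept in the sentences that follow. In the CD8 naive libraries it had 1.33 CPM in RhM22 after, 1.68 CPM in RhM22 before and 0.305 CPM in RhDBCb before. CD4 had 520, 549, 351 and 267 CPM in the CD4 memory libraries and 489, 330, 323 and 207 CPM in the CD4 naive libraries. The ranges of the CD8 and CD4 lineages lay far apart, and within the CD4 lineage memory and naive cells overlapped. CD4 was 487-fold lower in CD8 memory than in CD4 memory cells (log2 fold change -8.93, SE 0.46, edgeR adjusted p = 8.74e-07) and 354-fold lower in CD8 naive than in CD4 naive cells (log2 fold change -8.47, SE 0.60, edgeR adjusted p = 1.31e-05). The lowest library, CD8 memory of RhDBCb after treatment, still held 12 CD4 counts. Because CD4 and CD8 name the subsets, these differences check the labels and are not findings about the cells.

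CD8A, the alpha chain that forms CD8 with itself or with the beta chain, had 670, 861, 772 and 713 CPM in the CD8 memory libraries. In the CD8 naive libraries it had 787 CPM in RhM22 after, 819 CPM in RhM22 before and 665 CPM in RhDBCb before. The CD4 libraries held 3.26, 3.6, 2.09 and 1.56 CPM of CD8A in memory and 3.93, 2.34, 1.18 and 1.12 CPM in naive cells. Memory and naive cells thus overlapped within each lineage. CD8A was 306-fold higher in CD8 memory than in CD4 memory cells (log2 fold change 8.26, SE 0.36, edgeR adjusted p = 2.15e-07) and 348-fold higher in CD8 naive than in CD4 naive cells (8.44, SE 0.37, adjusted p = 3.20e-07).

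CD8B, the beta chain found only in the CD8 alpha-beta pair, differed within the CD8 lineage as well. It had 224, 165, 163 and 195 CPM in the CD8 memory libraries. In the CD8 naive libraries CD8B had 304 CPM in RhM22 after, 313 CPM in RhM22 before and 437 CPM in RhDBCb before. Every CD8 memory library lay under every CD8 naive library. CD8B was 1.77-fold lower in CD8 memory than in CD8 naive cells (log2 fold change -0.82, SE 0.22, edgeR adjusted p = 0.0442), while CD8A was 754 ± 82.6 CPM in CD8 memory and 757 ± 81.3 CPM in CD8 naive cells (SD, n = 4 and 3; log2 fold change 0.18, SE 0.30, edgeR adjusted p = 0.787). Within the same draw the CD8A log2 difference was -0.23 in RhM22 after, 0.07 in RhM22 before and 0.10 in RhDBCb before. This CD8B call is close to its threshold: it was kept in 3 of the 15 fits that left out 1 library each, those without RhM22's CD8 naive before library or without the CD4 naive after library of either animal. Without each of the other 12 libraries the adjusted p was 0.0531 to 0.264, and the log2 fold change stayed between -1.07 and -0.56 over all 15 fits. The highest p came without the CD8 naive before library of RhDBCb, the library with the most CD8B (log2 fold change -0.56). Without all before libraries of RhDBCb the log2 fold change was -0.67 (adjusted p = 0.144). In the CD4 libraries CD8B lay at 0.243 to 0.57 CPM, and it was 527-fold higher in CD8 memory than in CD4 memory cells (log2 fold change 9.04, SE 0.29, edgeR adjusted p = 2.24e-08) and 743-fold higher in CD8 naive than in CD4 naive cells (9.54, SE 0.30, adjusted p = 1.71e-08).

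**Figure D1:**
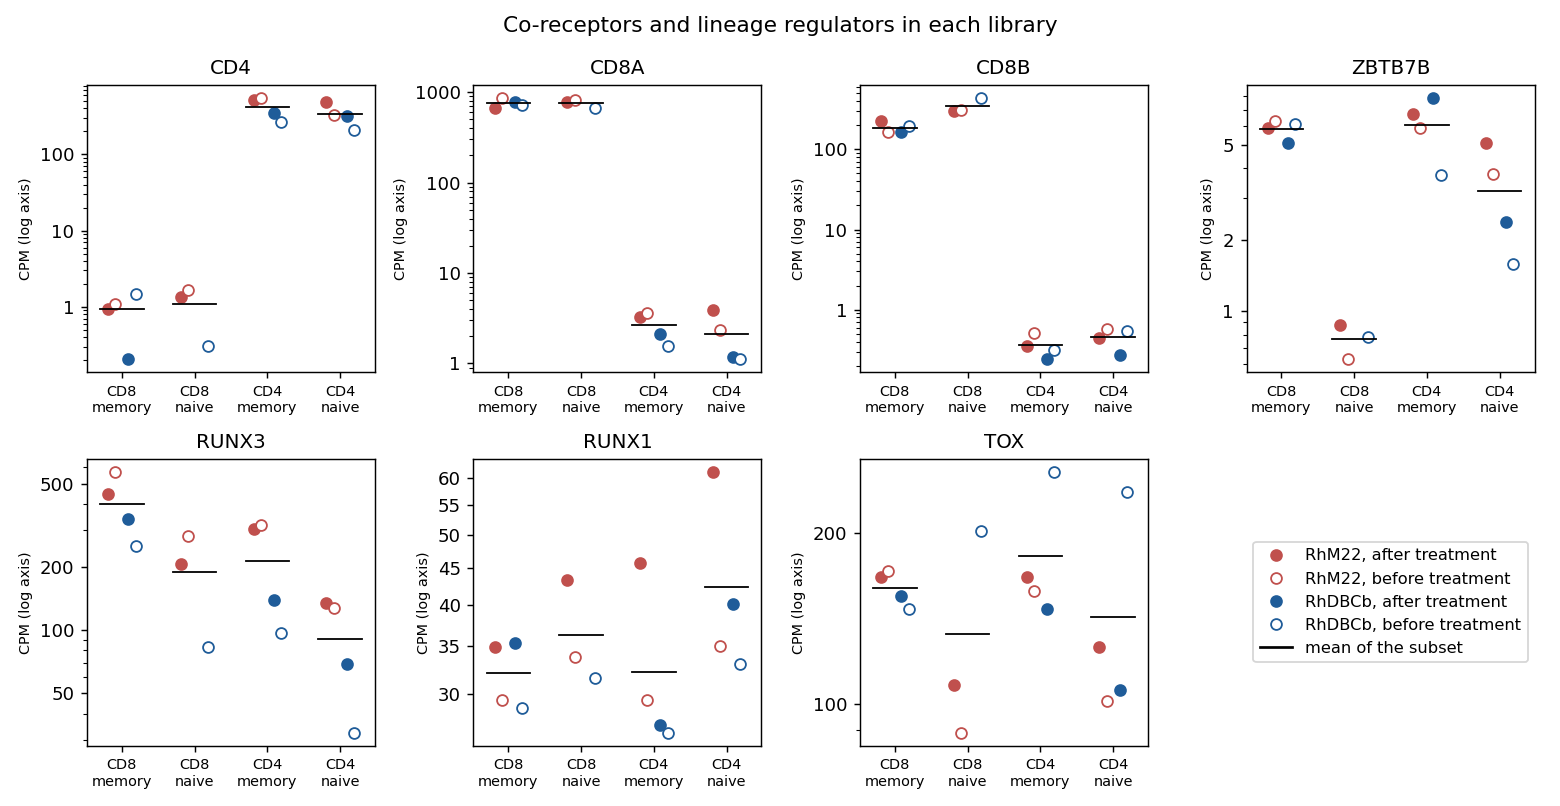
CPM (log axis) of each of the 7 genes in each of the 15 libraries, by subset; filled points are after and open points before treatment, red is RhM22, blue is RhDBCb, and the black line is the mean of the subset. CD4, CD8A and CD8B split by lineage, CD8B and ZBTB7B do not overlap between CD8 memory and CD8 naive libraries, and RUNX3 is higher in RhM22 than in RhDBCb in 7 of 7 matched groups.

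The ratio of the chains within a library does not depend on the scaling between libraries. Set against the mean of the CD8 naive libraries, the log2 ratio of CD8B to CD8A was -0.46, -1.26, -1.12 and -0.75 in the CD8 memory libraries. It was -0.25 in the RhM22 after, -0.27 in the RhM22 before and 0.52 in the RhDBCb before CD8 naive library. The groups did not overlap, and the mean was -0.90 ± 0.36 in CD8 memory and 0.00 ± 0.45 in CD8 naive cells (SD, n = 4 and 3). The difference of -0.89 gave p = 0.0571 in a two-sided exact permutation test, and the same after adjustment over the 2 ratios tested; the smallest p this design allows is 0.0286. Permuting the labels within each animal gave an exact p = 0.0556, the smallest that arrangement allows. CD8A and CD8B are neighbours whose spans overlap in the RefSeq annotation of another build (T2T-MMU8v2.0), at 43.1 kb and 43.3 kb. The lengths implied by the deposited FPKM values were 6.1 kb for CD8A and 40 kb for CD8B (medians over libraries). The CD8A model behind these values was thus shorter, and whether it overlaps CD8B was not tested. These libraries do not mark strand, so a read in any shared stretch could count for either gene.

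Some markers of other CD8-bearing cells also differed between CD8 memory and CD8 naive libraries. Rhesus natural killer cells and many gamma-delta T cells are known to carry the alpha chain without the beta chain. The summed level of the 6 natural killer markers was 34.7 to 83.5 CPM in CD8 memory libraries and 11.4 to 24.6 CPM in CD8 naive libraries, led by KLRF1, a receptor also found on cytotoxic T cells, at a mean of 43.7 CPM in CD8 memory and 6.78 CPM in CD8 naive. FCER1G, an adaptor of natural killer and myeloid cells, averaged 0.114 CPM in CD8 memory and 0.113 CPM in CD8 naive libraries. The mean of SH2D1B was lower in CD8 memory (0.403 against 0.669 CPM), and those of TYROBP, NCR1 and NCAM1 were higher. Of the 4 gamma-delta markers 2 had a row, TRGC2 and SOX13, and their sum was 10.7 to 34.7 CPM in CD8 memory and 2.21 to 3.99 CPM in CD8 naive libraries. Most of it was TRGC2, at a mean of 23.6 CPM in CD8 memory and 3.21 CPM in CD8 naive, against 0.306 and 0.0613 CPM for SOX13. In these bulk samples fewer cells of a type and less RNA per cell cannot be told apart, and the part of such cells in the CD8B result was not tested. The summed level of 6 B cell markers also differed, at 32.8 to 51.6 CPM in CD8 memory and 67 to 113 CPM in CD8 naive libraries, while that of 8 monocyte and dendritic cell markers overlapped (7.69 to 47.8 CPM in CD8 memory, 1.55 to 39.7 CPM in CD8 naive). Their part in the CD8 memory against CD8 naive results was not tested either.

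**Figure D2:**
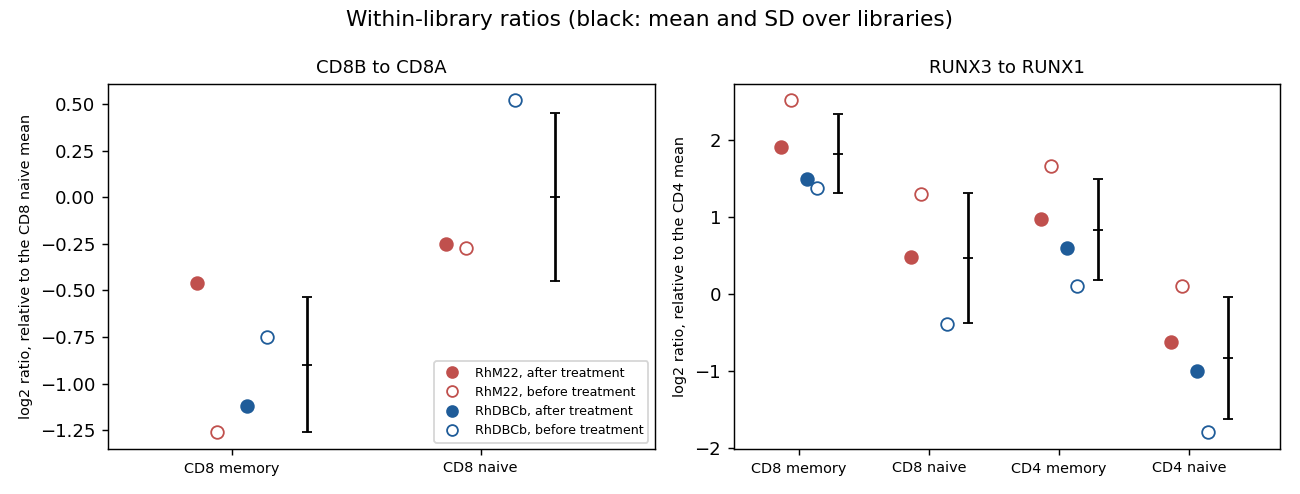
Within-library log2 FPKM ratios, CD8B to CD8A in the CD8 subsets (left) and RUNX3 to RUNX1 in all subsets (right), each set against the mean named on its axis; points are libraries and the black bars are the mean and SD over 3 or 4 libraries. CD8 memory libraries lie under CD8 naive libraries on the left (-1.26 to -0.46 against -0.27 to 0.52), and CD8 memory is highest on the right with a mean of 1.82.

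ZBTB7B, the helper-fate factor, was lowest in CD8 naive cells and overlapped between the memory cells of both lineages. In the CD8 memory libraries it had 5.9, 6.32, 5.08 and 6.14 CPM. ZBTB7B in the CD8 naive libraries had 0.881 CPM in RhM22 after, 0.632 CPM in RhM22 before and 0.781 CPM in RhDBCb before. The CD4 memory libraries held 6.71, 5.88, 7.87 and 3.74 CPM, and the CD4 naive libraries 5.07, 3.77, 2.37 and 1.58 CPM. The CD8 naive libraries were lowest with no overlap with any other subset, CD8 memory lay just above CD4 naive (lowest 5.08 against highest 5.07 CPM), and the memory subsets overlapped. These values rest on few reads, 44 to 519 counts per library. ZBTB7B was 7.85-fold higher in CD8 memory than in CD8 naive cells (log2 fold change 2.97, SE 0.44, edgeR adjusted p = 0.00198), a difference called in all 15 fits that left out 1 library, where the adjusted p reached at most 0.00881. Without the before libraries of RhDBCb it was 3.05 (adjusted p = 0.00817), and in the after libraries alone 2.83 (adjusted p = 0.0828).

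Between the lineages ZBTB7B was 4.05-fold lower in CD8 naive than in CD4 naive cells (log2 fold change -2.02, SE 0.41, edgeR adjusted p = 0.0291). This call was lost without the CD8 naive after library of RhM22 (adjusted p = 0.181), its CD4 naive after (0.0984) or before library (0.0868), its CD8 naive before (0.0599) or CD4 memory before library (0.0533), or the CD4 memory before library of RhDBCb (0.0516). It was also lost when all before libraries of RhDBCb were left out (log2 fold change -2.35, adjusted p = 0.0516), in the before libraries alone (-1.82, adjusted p = 0.179), in the after libraries alone (-2.21, adjusted p = 0.474) and with limma on log2(FPKM + 1) (-0.21 on that scale, adjusted p = 0.223). The B cell markers summed to 67 to 113 CPM in CD8 naive and 21.1 to 27.3 CPM in CD4 naive libraries, and their part in the result was not tested. In memory cells the lineages were 5.86 ± 0.549 CPM in CD8 and 6.05 ± 1.74 CPM in CD4 (SD, n = 4 each; log2 fold change -0.01, SE 0.33, edgeR adjusted p = 1). CD4 itself was 0.207 to 1.46 CPM in the same CD8 memory libraries. Within the CD4 lineage the memory-minus-naive log2 fold change of ZBTB7B was 0.97 (SE 0.34, edgeR adjusted p = 0.131). The difference between the memory-minus-naive steps, CD8 minus CD4, was 2.01 (SE 0.52) and did not pass over all genes (edgeR adjusted p = 0.505, unadjusted p = 0.00223, rank 63 of 14814 genes by p); DESeq2 gave the same 2.01 with an adjusted p of 0.0321. With edgeR, none of the 7 members and 0.0203% of all genes were called in that comparison, and ZBTB7B was the one member under 0.05 without adjustment.

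RUNX3, the cytotoxic-fate factor, was higher in memory than in naive cells of both lineages. It had 444, 570, 339 and 253 CPM in the CD8 memory libraries. RUNX3 in the CD8 naive libraries had 206 CPM in RhM22 after, 282 CPM in RhM22 before and 82.7 CPM in RhDBCb before. It had 305, 317, 140 and 97 CPM in the CD4 memory libraries and 135, 128, 68.6 and 32.4 CPM in the CD4 naive libraries. The subset means ran in the order CD8 memory, CD4 memory, CD8 naive and CD4 naive, at 402 ± 137, 215 ± 113, 190 ± 101 and 91.0 ± 49.1 CPM (SD, n = 4, 4, 3 and 4), and all neighbours in this order overlapped. The animals differed within subsets: RUNX3 was higher in RhM22 than in RhDBCb in 7 of 7 matched groups, by 0.39 to 1.98 on the log2 scale. With the animal in the model, RUNX3 was 2.76-fold higher in CD8 memory than in CD8 naive cells (log2 fold change 1.47, SE 0.29, edgeR adjusted p = 0.00932) and 2.39-fold higher in CD4 memory than in CD4 naive cells (1.26, SE 0.24, adjusted p = 0.00966). The CD8 call was lost without the CD8 naive after library of RhM22 (adjusted p = 0.0663) and the CD4 call without the CD4 naive before library of RhDBCb (0.0515). Without all before libraries of RhDBCb both held, at 1.17 in CD8 (adjusted p = 0.0317) and 1.23 in CD4 cells (adjusted p = 0.0227).

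The lineages differed in RUNX3 among memory cells. It was 2.05-fold higher in CD8 memory than in CD4 memory cells (log2 fold change 1.04, SE 0.24, edgeR adjusted p = 0.0317). Among naive cells the log2 fold change, CD8 minus CD4, was 0.83 (SE 0.26, edgeR adjusted p = 0.223). The memory call held in 8 of 15 fits with 1 library left out. It was lost without the CD4 memory library of RhDBCb before (adjusted p = 0.17) or after treatment (0.108), without that of RhM22 before (0.0644) or after (0.127), and without the CD8 memory library of RhDBCb before (0.0968) or after (0.111) or of RhM22 before (0.0759). Without the before libraries of RhDBCb it was 0.88 (adjusted p = 0.084), in the before libraries alone 1.10 (adjusted p = 0.235) and in the after libraries alone 0.97 (adjusted p = 0.32).

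RUNX1, a relative of RUNX3 that shares its partner CBFB and in mice silences CD4 at an earlier thymic stage, showed no called difference between subsets. It had 34.9, 29.4, 35.3 and 28.7 CPM in the CD8 memory libraries. RUNX1 in the CD8 naive libraries had 43.3 CPM in RhM22 after, 33.8 CPM in RhM22 before and 31.6 CPM in RhDBCb before. It had 45.7, 29.4, 27.2 and 26.5 CPM in CD4 memory and 61.3, 35, 40.1 and 33 CPM in CD4 naive libraries. Within the same animal and draw, RUNX1 was lower in memory than in naive cells in 7 of 7 pairs, by -0.56 to -0.14 on the log2 scale. Over all libraries the neighbouring subsets overlapped, and the log2 fold changes of the 4 subset contrasts ran from -0.38 (SE 0.18, CD4 memory minus CD4 naive, edgeR adjusted p = 0.286) to 0.02 (SE 0.18, CD8 memory minus CD4 memory, adjusted p = 1). The log2 ratio of RUNX3 to RUNX1 within a library, set against the CD4 mean, was 1.24 ± 0.95 in the 7 CD8 libraries and 0.00 ± 1.11 in the 8 CD4 libraries (SD). By subset its mean was 1.82 in CD8 memory, 0.83 in CD4 memory, 0.46 in CD8 naive and -0.83 in CD4 naive libraries. It thus differed between memory and naive cells as well, with CD4 memory above CD8 naive. The two-sided exact permutation test between the lineages, which did not account for memory or naive state, gave p = 0.0404. Adjustment over the 2 ratios raised this to 0.0571. Labels permuted within the animals gave an exact p = 0.029, adjusted 0.0556. The adjusted p was under 0.05 only without the CD8 naive before library of RhDBCb (difference 1.51, exact permutation p = 0.0137, adjusted 0.0273) or the CD4 memory before library of RhM22 (1.47, exact p = 0.0163, adjusted 0.0326). Without each of the other libraries the adjusted p was 0.0571 to 0.1, and the exact permutation p reached 0.0829. In the before libraries alone the difference was 1.18 (exact permutation p = 0.286). The lineage groups overlapped, from -0.39 to 2.51 in CD8 and from -1.8 to 1.66 in CD4 libraries.

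TOX, a DNA-binding factor that mouse thymocytes need to become CD4 cells and that is also known from exhausted CD8 cells, showed no called difference between subsets. TOX had 167, 171, 155 and 147 CPM in the CD8 memory libraries. In the CD8 naive libraries it had 108 CPM in RhM22 after, 89 CPM in RhM22 before and 201 CPM in RhDBCb before. It had 167, 158, 147 and 256 CPM in CD4 memory and 126, 101, 106 and 236 CPM in CD4 naive libraries. The before libraries of RhDBCb were the highest in CD8 naive, CD4 memory and CD4 naive cells and the lowest in CD8 memory cells. CD4 memory minus CD4 naive was 0.38 (SE 0.27, edgeR adjusted p = 0.509) and CD8 memory minus CD8 naive 0.32 (SE 0.31, adjusted p = 0.596). Without the before libraries of RhDBCb they were 0.56 (SE 0.19, adjusted p = 0.192) and 0.79 (SE 0.21, adjusted p = 0.0804).

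Counted over the members, 2 were higher and 2 lower in CD8 naive than in CD4 naive cells, where 1.67% of all genes were called, 1.03% higher and 0.635% lower. In CD8 memory against CD4 memory cells 3 were higher and 1 lower, with 4.07% of all genes called, 2.61% higher and 1.46% lower. Of these 8 calls 6 are CD4, CD8A and CD8B, which the labels name. RUNX3 alone was called, higher, in CD4 memory against CD4 naive cells, where 5.6% of all genes were called, 3.89% higher and 1.71% lower. In CD8 memory against CD8 naive cells ZBTB7B and RUNX3 were higher and CD8B lower, beside 8.4% of all genes, 5.31% higher and 3.1% lower. The co-receptor calls between lineages were kept in all 15 fits that left out 1 library and under all 9 other settings.

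**Figure D3:**
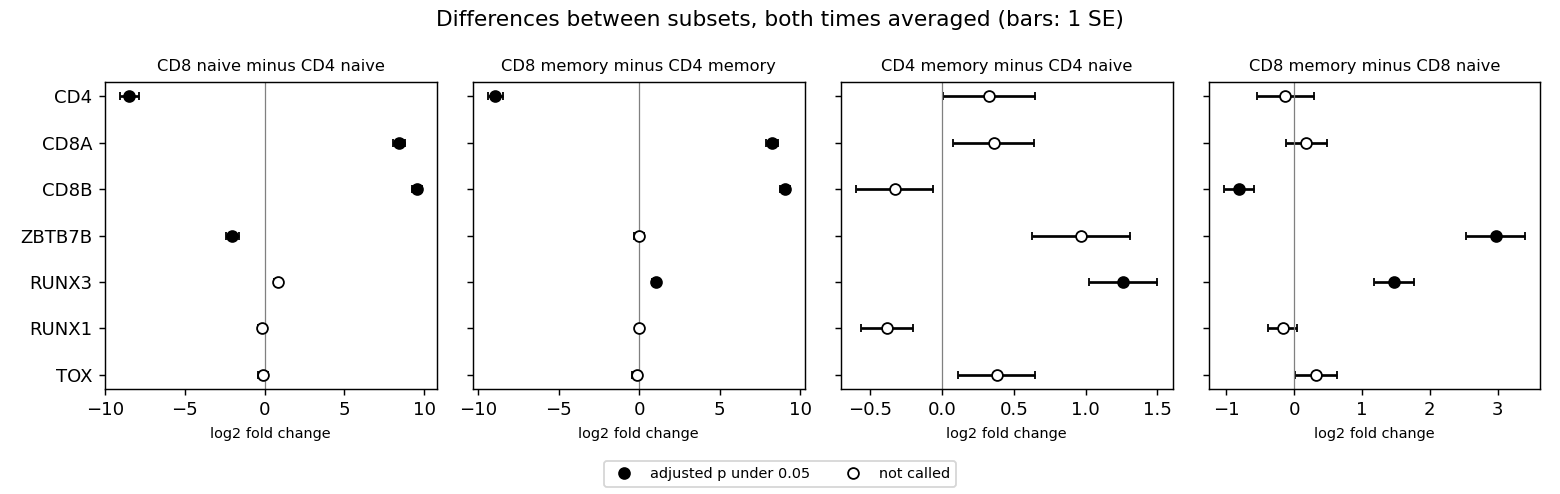
Log2 fold change with 1 SE of each of the 7 genes in the 4 contrasts between subsets (edgeR, both times averaged); filled points passed an adjusted p of 0.05, and the panels have different scales. ZBTB7B is at -2.02 between naive lineages, at -0.01 between memory lineages and at 2.97 between CD8 memory and CD8 naive cells, and RUNX3 is filled in the 3 contrasts that involve memory cells.

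Of 24 further lineage regulators, 1 to 5 were called in each contrast. Between naive lineages 1 was higher in CD8 and 0 lower, beside 1.67% of all genes called (median log2 fold change -0.04, against -0.03 over all genes): RUNX2, the third RUNX factor, at 6.43 ± 0.901 CPM in CD8 naive and 0.672 ± 0.533 CPM in CD4 naive cells (SD, n = 3 and 4; log2 fold change 3.16, SE 0.69, edgeR adjusted p = 0.041). Between memory lineages 1 was higher and 2 lower in CD8, beside 4.07% of all genes (median 0.05, against 0.03): ID2, an inhibitor of E proteins, was higher (0.96, SE 0.19, edgeR adjusted p = 0.0165), and the TOX relative TOX2 (-1.96, SE 0.41, adjusted p = 0.0196) and the early T cell factor LEF1 (-1.61, SE 0.33, adjusted p = 0.018) were lower.

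In CD4 memory against CD4 naive cells 1 of the 24 was higher and 2 lower, beside 5.6% of all genes (median -0.17, against -0.02). RUNX2 was higher (3.34, SE 0.66, edgeR adjusted p = 0.0118), and the chromatin organiser SATB1 (-1.08, SE 0.17, adjusted p = 0.003) and ID2 (-0.91, SE 0.19, adjusted p = 0.0179) were lower. In CD8 memory against CD8 naive cells 1 was higher and 4 lower, beside 8.4% of all genes (median 0.00, against 0.05). GATA3, which acts upstream of ZBTB7B in mouse thymocytes, had 224 ± 105 CPM in CD8 memory and 60.8 ± 5.22 CPM in CD8 naive cells (SD, n = 4 and 3; log2 fold change 1.77, SE 0.31, edgeR adjusted p = 0.00519). SATB1 (-1.28, SE 0.18, adjusted p = 0.00179) and LEF1 (-2.15, SE 0.35, adjusted p = 0.00357) were the lower ones with the smallest p.

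Of the 15 partners of the co-receptors and the T cell receptor, 0 to 2 were called in each contrast, with the same shares of all genes called as given for the regulators. Between naive lineages 0 were called by edgeR (median -0.18), and between memory lineages 1, the inhibitory receptor CD5, was lower in CD8 (log2 fold change -1, SE 0.20, edgeR adjusted p = 0.0154; list median -0.09). The adhesion receptor CD2 was the 1 called in CD4 memory against CD4 naive cells (0.91, SE 0.17, adjusted p = 0.00976; list median 0.11). In CD8 memory against CD8 naive cells CD2 was higher (1.25, SE 0.20, edgeR adjusted p = 0.00354) and THEMIS, a regulator of receptor signalling in thymocytes, lower (-2.31, SE 0.41, adjusted p = 0.00585), with a list median of 0.09.

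Helper-side and cytotoxic-side genes had more calls. These lists too were chosen with earlier results of these data known. Of 10 measured helper-side genes 7 were lower in CD8 naive than in CD4 naive cells, beside 0.635% of all genes lower (median log2 fold change -2.73, against -0.03), CD40LG, the helper signal to B cells, by -6.17 (SE 0.80, edgeR adjusted p = 0.00163) and the follicle-homing receptor CXCR5 by -3.10 (SE 0.21, adjusted p = 1.06e-05). In CD8 memory against CD4 memory cells 5 were lower and 1 higher, beside 1.46% of all genes lower and 2.61% higher (median -1.76, against 0.03). FOXP3 of regulatory T cells (-2.94, SE 0.40, edgeR adjusted p = 0.00161) and CXCR5 (-2.34, SE 0.17, adjusted p = 1.74e-05) were among the lower, and the water channel AQP3 was the higher one (1.44, SE 0.29, adjusted p = 0.0157).

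Within lineages 3 of the 10 were higher and 0 lower in CD4 memory than in CD4 naive cells, beside 3.89% of all genes higher (median 0.53, against -0.02). In CD8 memory against CD8 naive cells 8 were higher and 0 lower, beside 5.31% of all genes higher (median 2.29, against 0.05). The chemokine receptor CCR4 averaged 44 ± 24.6 CPM in CD8 memory and 1.41 ± 0.246 CPM in CD8 naive cells (SD, n = 4 and 3; log2 fold change 5.02, SE 0.60, edgeR adjusted p = 0.000664), and CXCR5 rose by 2.62 (SE 0.21, adjusted p = 0.000263). ZBTB7B and 8 of the 10 helper-side genes were thus higher in CD8 memory than in CD8 naive libraries. CD4 was not called between them (log2 fold change -0.13, SE 0.42, edgeR adjusted p = 0.917).

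Of 10 measured cytotoxic-side genes 9 were higher in CD8 naive than in CD4 naive cells (median 4.01, against -0.03; 1.03% of all genes higher) and 10 in CD8 memory than in CD4 memory cells (median 3.32, against 0.03; 2.61% higher). The cathepsin CTSW had the smallest p in both (7.04, SE 0.32, edgeR adjusted p = 4.05e-07 in naive; 6.28, SE 0.30, adjusted p = 5.51e-07 in memory), with CRTAM, an activation receptor of cytotoxic cells, at 7.40 (SE 0.49, adjusted p = 7.84e-06) and 5.05 (SE 0.42, adjusted p = 5.91e-05). Memory cells were higher in 7 and lower in 0 of them in each lineage, with medians of 2.58 in CD8 (against 0.05 over all genes) and 3.26 in CD4 (against -0.02). The granzyme GZMK rose by 2.97 (SE 0.36, edgeR adjusted p = 0.000709) in CD8 memory and by 4.59 (SE 0.32, adjusted p = 0.000125) in CD4 memory cells, and TBX21, which encodes the factor T-bet, by 2.69 (SE 0.38, adjusted p = 0.00162) and 3.43 (SE 0.33, adjusted p = 0.000227). In the difference between the memory-minus-naive steps 0 genes of the 4 lists were called by edgeR.

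The genes whose profile over the 15 libraries lay nearest to each member were found by the root mean square difference of centred log2 CPM among 8284 genes. CD8A was nearest to KLRD1 (1.10), NKG2D (1.19) and CTSW (1.21), and CD8B to the same 3, with CTSW first (1.47), against SDs of the members of 4.38 and 4.75. For CD4, LTBP4 (2.59), APOD (2.66) and RAB11FIP5 (2.87) came first, against an SD of 4.59. Among the genes nearest to ZBTB7B were SLC2A4RG (0.51) and MT2A (0.515), with an SD of 1.22. RUNX3 was nearest to PLEKHO2 (0.342), PREX1 (0.392) and NFE2L3 (0.394), with an SD of 1.13. RUNX1 was nearest to LRCH4 (0.185), DROSHA (0.187) and JADE1 (0.191), with an SD of 0.323, and TOX to MSMO1 (0.197), LMBRD1 (0.218) and GOLT1B (0.221), with an SD of 0.44. All these values share the same libraries, animals and draws.

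No member was called after against before treatment, in which 0.00675% of all genes, 1 gene, passed over all subsets with edgeR; 1526 genes and 1 member lay under 0.05 without adjustment, and DESeq2 called 0 members. That member was RUNX1. In RhM22 it had 61.3 CPM after and 35 CPM before treatment in CD4 naive cells, 45.7 CPM after and 29.4 CPM before in CD4 memory cells, 43.3 CPM after and 33.8 CPM before in CD8 naive cells, and 34.9 CPM after and 29.4 CPM before in CD8 memory cells. In RhDBCb it had 40.1 CPM after and 33 CPM before treatment in CD4 naive cells, 27.2 CPM after and 26.5 CPM before in CD4 memory cells, and 35.3 CPM after and 28.7 CPM before in CD8 memory cells. RUNX1 was higher after treatment in 7 of 7 pairs, by 0.04 to 0.81 on the log2 scale. In the same pairs the summed platelet markers were higher after treatment in 6 of 7 and the summed B cell markers in 7 of 7, and their part in the result was not tested. The mean difference was 0.38 (SE 0.12) and did not pass over all genes (edgeR adjusted p = 0.361, unadjusted p = 0.00602; DESeq2 adjusted p = 0.0701). Over all alternatives run on this value the adjusted p was 0.0701 to 0.846.

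The other members showed smaller or divided differences over treatment. CD8B had a log2 difference of -0.28 (SE 0.17, edgeR adjusted p = 0.589), lower in 6 of 7 pairs, with the exception of CD8 memory cells of RhM22 (224 CPM after, 165 CPM before). Of those 6 pairs 4 are CD4 libraries, with at most 0.57 CPM. ZBTB7B had 0.28 (SE 0.23, adjusted p = 0.709), higher in 5 of 7 pairs and lower in the CD8 memory pair of each animal. CD8A had 0.08 (SE 0.19, adjusted p = 0.923) and CD4 0.00 (adjusted p = 1; higher in 3 of 7 pairs). In single subsets edgeR called 0 genes (0%), with 603 genes under an unadjusted 0.05 in CD4 naive, 230 in CD4 memory, 148 in CD8 naive and 216 in CD8 memory libraries. The 1 member among them was CD4 in CD8 memory cells (log2 difference -1.41, SE 0.55, unadjusted p = 0.0259, edgeR adjusted p = 1), which had 0.934 CPM after and 1.1 CPM before in RhM22 and 0.207 CPM after and 1.46 CPM before in RhDBCb. DESeq2 called 9 genes in CD4 naive cells and 0 members in any subset. In the 4 pathway lists edgeR called 0 genes over treatment, over all subsets and in each subset, and the medians over all subsets were -0.16 to 0.05 against 0.01 over all genes. In single subsets the medians ran from -0.79 for the cytotoxic-side genes in CD8 naive cells, from RhM22 alone after treatment (0 of 10 above 0), to 0.35 for the same genes in CD8 memory cells (9 of 10 above 0).

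RUNX3 and TOX went different ways in the 2 animals. RUNX3 was higher after treatment in 1 of 4 pairs of RhM22 (log2 differences -0.46 to 0.08) and in 3 of 3 pairs of RhDBCb (0.42 for CD8 memory, 0.53 for CD4 memory and 1.08 for CD4 naive cells). TOX was higher after in 3 of 4 pairs of RhM22 (-0.04 to 0.31). In RhDBCb it was lower in CD4 naive (-1.16) and CD4 memory cells (-0.80) and at 0.08 in CD8 memory cells. The difference between the changes, RhM22 minus RhDBCb, was -0.84 for RUNX3 (SE 0.24, edgeR adjusted p = 0.0683, unadjusted p = 0.00421) and 0.90 for TOX (SE 0.29, adjusted p = 0.0931, unadjusted p = 0.00774). So 0 of 7 members were called, beside 4.58% of all genes (1.81% higher and 2.77% lower in RhM22), whereas DESeq2 called both (adjusted p = 0.0222 for RUNX3 and 0.0285 for TOX). When RhDBCb's before library of CD8 memory cells was left out, edgeR called both, at -1.04 for RUNX3 (adjusted p = 0.0133) and 1.18 for TOX (adjusted p = 0.00222). That library belongs to the RhDBCb pair with the smallest change in both genes (0.42 for RUNX3 and 0.08 for TOX). For TOX, edgeR gave an adjusted p of 0.0705 to 0.259 without each of the other libraries.

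The difference has no value without any 1 of the 4 draws. Of these, the before draw of RhDBCb held the fewest detected genes in each subset. In this comparison the subsets within a draw serve as replicates, with edgeR and with DESeq2. Its p-values and calls therefore cannot separate a response that differs by animal from variation between draws. Before treatment RhM22 was above RhDBCb in 4 of 4 subsets for RUNX3 and in 1 of 4 for TOX; after treatment it was above in 3 of 3 for both. Platelet markers, summed over 6 genes, were 28.2 to 94.9 CPM after and 21.5 to 57.7 CPM before treatment in RhM22, and 13.1 to 25.4 CPM after and 2.14 to 4.25 CPM before in RhDBCb, and their part in the result was not tested. In the same comparison 1 of the 24 further regulators was called, HDAC1, a histone deacetylase (0.64, SE 0.17, edgeR adjusted p = 0.0481; list median 0.18 against -0.01 over all genes). Of the 15 partners THEMIS was higher (1.64, SE 0.28, adjusted p = 0.00933) and the receptor kinase ZAP70 lower (-1.23, SE 0.19, adjusted p = 0.00533), with a list median of 0.31. Helper-side and cytotoxic-side genes had 0 calls.

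**Figure D4:**
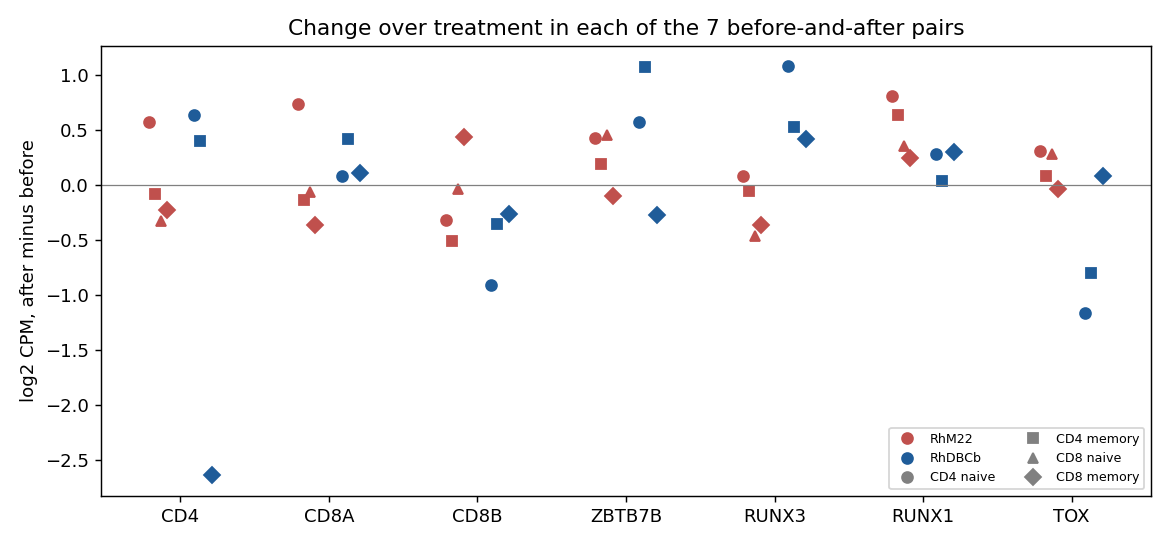
Log2 difference in CPM, after minus before treatment, of each of the 7 genes in each of 7 pairs; red is RhM22, blue is RhDBCb, and the shape gives the subset. RUNX1 is above 0 in 7 of 7 pairs (0.04 to 0.81), RUNX3 is above 0 in all 3 pairs of RhDBCb and 1 of 4 of RhM22, and the lowest point is CD4 in CD8 memory cells of RhDBCb, at -2.64.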

How the data were processed

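RNA was extracted with the RNeasy Micro kit and libraries were made with SMART-Seq v4, per the labels' protocols. The authors deposited expected counts per gene; RSEM 1.3.3, STAR 2.7.6a and cutadapt 1.18 are listed, with the builds rheMac10 and Mmul_10, per the submitters' processing notes. The authors also deposited FPKM values, whose implied lengths are mostly close to genomic spans (median 0.897 of the RefSeq span over 7229 genes). CD8A was an exception, at 6.1 kb against a span of 43.1 kb. Levels of different genes are therefore not compared, and FPKM served for the within-library ratios and as an alternative. Expected counts of the 7 members were whole in every library; rounding moved a library total by at most 26.1. CD8B was matched through a table of gene names.

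Genes were filtered with filterByExpr (minimum count 10) and scaled with TMM. The main test was edgeR's quasi-likelihood test over all 15 libraries, with subset, time and animal in the model, called at a Benjamini-Hochberg adjusted p under 0.05 over 14814 genes; the SE is the log2 fold change divided by the square root of F. Nearest genes were sought on log2 CPM with a prior count of 2. The scripts were tested on simulated counts with a spread estimated from these libraries. In CD8 naive minus CD4 naive, 10.3% of 97 genes with a true log2 change of 1 were recovered. Of 98 genes with a true change of 2 it was 50%, beside 4 false calls. Over treatment in all subsets the shares were 54.2% of 96 and 69.5% of 95 genes, beside 8 false calls. A difference that was not called is therefore not shown to be absent. edgeR 4.0.16, DESeq2 1.42.0 and limma 3.58.1 ran in R 4.3.3. Libraries are paired by animal, as the labels name it; deviations from the means of the 7 groups with both animals correlated at 0.195 to 0.501 over 21 pairs of groups, across genes. No 2 of the libraries agreed within sampling noise (105 pairs, lowest chi-square per degree of freedom 69.4). Depth gives counting error only, since PCR copies cannot be told from molecules.

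The members and the lists of genes were chosen with earlier results of these data known. Named genes are the 7 members, up to 2 called genes per direction with the smallest p of each list and comparison, and the 3 nearest genes with a symbol and a mean CPM of at least 5. A gene that this rule took is not reported here. Alternatives were DESeq2, other scalings, no filter, no animal term, limma on log2(FPKM + 1), the before or after libraries alone and leaving out each library; leaving out the before libraries of RhDBCb was added after the data were seen. Of the lists, FBLN7 and KLRK1 had no row of that symbol and NELL2 did not pass the filter. The row named NKG2D, an alias of KLRK1, was among the nearest genes but was not counted with the cytotoxic-side genes.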

Additional observations from a re-analysis of the deposited data

How the results depend on the processing

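Number of members called, against the values in the report. CD4 memory minus CD4 naive had 1 called. It had 2 with DESeq2, which added ZBTB7B (adjusted p = 0.0426), 0 with no replicate block, 0 in the before and 0 in the after libraries alone, and 0 to 1 with each library left out. CD8 memory minus CD8 naive had 3 called. It had 1 with no replicate block, 1 in the before and 0 in the after libraries alone, and 1 to 3 with each library left out. The memory-minus-naive difference between lineages had 0 with edgeR and 1 with DESeq2. The animal-by-time difference had 0 with edgeR, 2 with DESeq2 and 0 to 2 with each library left out. The RUNX3 to RUNX1 difference was 0.98 to 1.51 with each library left out. Without the pairing by animal (no replicate block) 5 calls were lost: ZBTB7B between naive lineages (adjusted p = 0.122), RUNX3 between memory lineages (0.741), in CD4 memory (0.402) and in CD8 memory (0.484), and CD8B in CD8 memory (0.121). The cause was not tested.

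Log2 differences that changed sign or came to 0 were all of values not called by edgeR. In the after libraries alone TOX was 0.04 between naive lineages and 0.03 between memory lineages, RUNX1 -0.02 between memory lineages, and CD8A 0.10 in the difference between lineages. In the before libraries alone ZBTB7B was 0.41 between memory lineages, CD4 0.67 in CD8 memory minus CD8 naive, and CD4 0.12 and RUNX3 -0.12 in the difference between lineages. With library totals ZBTB7B was 0.01 between memory lineages, CD4 0.08 over treatment, CD8A 0.04 over treatment in CD8 memory, and CD8A -0.04 by animal and time. With limma on log2(FPKM + 1) RUNX1 was 0.00 between memory lineages, CD4 0.09 in CD8 memory minus CD8 naive, 0.16 over treatment and -0.18 over treatment in CD8 naive, ZBTB7B -0.02 over treatment in CD8 naive, and CD8A -0.14 by animal and time. With no replicate block CD8A was -0.02 in CD8 memory minus CD8 naive and 0.09 over treatment in CD8 naive, CD4 0.01 over treatment, and RUNX3 -0.2 in the difference between lineages, 0.17 over treatment in CD8 naive and -0.07 in CD8 memory. With no filter CD4 over treatment was 0.01, and with DESeq2 CD4 by animal and time 0.14. Without the before libraries of RhDBCb TOX was 0.08 between memory lineages and 0.23 in the difference between lineages, and RUNX3 -0.07 in that difference.

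With each library left out the following also crossed 0. Between naive lineages TOX was -0.41 to 0.21. Between memory lineages RUNX1 was -0.12 to 0.18, TOX -0.32 to 0.03 and ZBTB7B -0.16 to 0.19. In CD8 memory minus CD8 naive CD4 was -0.64 to 0.66 and CD8A -0.05 to 0.44. In the difference between lineages TOX was -0.36 to 0.25, CD8A -0.6 to 0.07, RUNX3 -0.17 to 0.48 and CD4 -0.98 to 0.07. Over treatment CD4 was -0.12 to 0.20 and CD8A -0.08 to 0.17. In CD4 naive TOX was -0.93 to 0.10 and CD8A -0.24 to 0.99, and in CD4 memory CD8A was -0.16 to 0.47 and CD4 -0.04 to 0.37. In CD8 naive CD4 was -0.34 to 1.42, TOX -0.71 to 0.28, ZBTB7B -0.32 to 0.48 and RUNX3 -0.46 to 0.09. In CD8 memory CD8A was -0.67 to 0.36, ZBTB7B -0.39 to 0.02, TOX -0.28 to 0.37, RUNX3 -0.51 to 0.55 and CD8B -0.16 to 0.34. By animal and time CD4 was -0.51 to 0.32, ZBTB7B -0.34 to 0.30 and CD8A -0.37 to 0.29.

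Genes called over the whole table, given as CD8 naive minus CD4 naive, CD8 memory minus CD4 memory, CD4 memory minus CD4 naive and CD8 memory minus CD8 naive, were 247, 603, 830 and 1245 with edgeR. They were 560, 1252, 1648 and 2258 with DESeq2, 102, 179, 238 and 427 with no replicate block, 120, 143, 165 and 484 in the before libraries, and 56, 159, 198 and 143 in the after libraries. With limma on log2(FPKM + 1) the first was 124 and the third 449, and without the before libraries of RhDBCb the last 3 were 372, 496 and 760. With each library left out they ran over 117 to 313, 301 to 610, 427 to 896 and 458 to 1208. The difference between lineages had 3, against 86 with DESeq2, 19 with limma and 0 with no replicate block, in the before libraries, in the after libraries, or without the before libraries of RhDBCb. Treatment had 1 (0 higher, 1 lower), against 177 with DESeq2, 8 with library totals (6 higher, 2 lower), 0 with limma or no replicate block, and 0 to 3 with each library left out. Single subsets had 0, against 9 in CD4 naive cells with DESeq2, and 2 in CD4 memory and 8 in CD8 naive cells with limma. The animal-by-time difference had 679, against 1671 with DESeq2 and 99 to 1314 with each library left out. Library totals moved the median over all genes, after minus before in CD8 memory cells, to 0.11.

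ZBTB7B, at 44 to 519 counts, and CD4 in CD8 libraries are limited by depth. Leaving out the CD8 naive after library of RhM22 gives no treatment value in that subset.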
